A study of Homo sapiens with 10 samples.

Results

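The 36 genes described here form the glycolysis and hypoxia group of this study. They carry glucose into the cell, split it to pyruvate, decide what becomes of the pyruvate, or belong to the response of cells to low oxygen. They were chosen by gene symbol, and each of the 36 was found once among the 58735 genes of the deposited count tables. Their identifiers and positions on hg38 were those of GENCODE 29, where all are annotated as protein-coding. Among those the results turn on, SLC16A3 (ENSG00000141526) lies at chr17:82228397-82261129, PFKL (ENSG00000141959) at chr21:44300051-44327376, VEGFA (ENSG00000112715) at chr6:43770184-43786487, CA12 (ENSG00000074410) at chr15:63321378-63382161 and PDK1 (ENSG00000152256) at chr2:172555373-172608669. By role, 2 are glucose transporters, 15 are enzymes of the glycolytic pathway, 2 set the level of fructose 2,6-bisphosphate, 5 handle lactate and pyruvate, 2 are carbonic anhydrases, 2 encode secreted hypoxia targets, 6 encode intracellular hypoxia targets and 2 belong to the oxygen-sensing system itself.

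RNA was sequenced from TPC-1 cells, a line derived from a human papillary thyroid carcinoma, transfected with a vector that overexpresses PTCSC3-AS1 (OE, 5 libraries) or with an empty vector (EV, 5 libraries). PTCSC3-AS1 is a long non-coding RNA that takes its name from PTCSC3, a thyroid cancer susceptibility gene on the other strand. Replicates 4 and 5 of each group stand in one deposited table, called the second set here, and replicates 1 to 3 in another, called the first set. The column headers read EST_OE and Empty_Vector in the first set and OE and EV in the second. The labels and files do not say what sets the tables apart, whether the OE vector was the same in both, which promoter drove it, or whether replicates were separate cultures. A p-value here measures only the spread of the libraries, part of which may be technical. PTCSC3-AS1 itself was not analysed here, so its level does not check the OE label.

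Glycolysis turns glucose into pyruvate in the cytosol. Tumour cells often send much of that pyruvate to lactate even when oxygen is present, and lactate leaves the cell through monocarboxylate transporters. When oxygen falls, the prolyl hydroxylases that mark HIF-1 alpha for degradation slow down. HIF-1 then binds short DNA motifs with the core ACGTG or GCGTG and raises many genes of glycolysis, angiogenesis and pH control. In thyroid cancer, uptake of a labelled glucose analogue is imaged where uptake of iodine has been lost.

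The libraries held 15761474 to 18066559 counts, and the 36 genes together took 1.84% to 1.93% of the counts in OE libraries and 1.76% to 1.94% in EV libraries. Levels are given as CPM, counts relative to library size, scaled by TMM factors. The line's markers were mixed. PAX8, a thyroid transcription factor, averaged 438 ± 37.6 CPM in OE libraries and 390.2 ± 28.6 CPM in EV libraries (SD, n = 5 each), and FOXE1, HHEX, KRT8 and KRT18 were also present. NKX2-1, TSHR and SLC5A5 were at 0 in the 10 libraries, and TG, KRT19, EPCAM and CDH1 stood below 1 CPM on average, so the labelled thyroid origin rests on PAX8, FOXE1 and HHEX. Of the other cell types that a culture could hold, the 6 leukocyte markers summed to 0.524 to 1.39 CPM in OE libraries and 0.281 to 1.61 CPM in EV libraries, and the 4 endothelial markers to 0.297 to 0.999 CPM in OE libraries and 0.702 to 1.203 CPM in EV libraries. The 7 fibroblast markers summed to 7.39 to 9.97 CPM in OE libraries and 6.45 to 8.17 CPM in EV libraries. Mitochondrial genes took 4.10% to 4.50% of the counts in OE libraries and 4.45% to 5.08% in EV libraries. In each set the OE libraries were below the EV libraries in that share, and its part in the results below was not tested. The library EV replicate 2 stood apart: with it 5 genes of 14340 passed the test in the first set, and without it 1578 of 14769 did. Where its removal changed a call, a sign or a count of members past a p threshold by over 1.5 times, the value without it stands beside the result.

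Levels of different genes were compared only as CPM divided by the deposited gene length in kilobases (CPM per kb), given as mean ± SD over the 10 libraries. That length was 14883 bases for PDK1, 8995 for SLC16A3 and 5312 for SLC16A1, for example. Which transcripts it covers is not stated, and the order of genes depends on it, which was not tested. CA9 apart, the levels ran from 0.203 CPM per kb for ALDOC to 1047 CPM per kb for GAPDH. The highest were enzymes of the later steps of the pathway and the enzyme that makes lactate. GAPDH, which oxidises glyceraldehyde 3-phosphate, averaged 1047 ± 43.7 CPM per kb. ENO1, the enolase found in most tissues, averaged 702 ± 59.4, PKM, the pyruvate kinase, 479.7 ± 19.3, PGAM1, a phosphoglycerate mutase, 415 ± 45.4, and LDHA, the lactate dehydrogenase subunit that favours pyruvate to lactate, 305 ± 34.2 CPM per kb. TPI1, the triose phosphate isomerase, followed with 254 ± 23.8 CPM per kb and PGK1, a phosphoglycerate kinase that makes ATP, with 89.8 ± 6.07 CPM per kb. In this order LDHA and TPI1 lay closer together than the sum of their SDs, while the other neighbours lay farther apart than that sum.

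Across libraries these abundant enzymes varied little. GAPDH had 3081, 3132, 3028, 3178 and 2988 CPM in OE replicates 1 to 5, against 3153, 3445, 3105, 3101 and 2998 CPM in EV replicates 1 to 5. Its highest value was EV replicate 2, and the other 9 libraries of both groups overlapped. ENO1 had 3834, 3505, 3415, 3841 and 4059.5 CPM in OE replicates 1 to 5, against 3312, 3892, 3242, 3814 and 4132 CPM in EV replicates 1 to 5. PKM had 4407, 4248, 4320.3, 3954 and 4059.8 CPM in OE replicates 1 to 5, against 4098, 3971, 3980.2, 3932 and 4146 CPM in EV replicates 1 to 5. OE libraries of the first set were above the first-set EV libraries in PKM, while in ENO1 and GAPDH the groups overlapped in both sets. The reads of GAPDH could be shared with 62 annotated pseudogenes, which held 0.426% of its own count, and those of TPI1 with 4 pseudogenes holding 1.28%.

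The genes of the upper pathway were lower per length. PFKP, the platelet type of phosphofructokinase, averaged 57.9 ± 7.07 CPM per kb, against 14.7 ± 0.747 for the muscle type PFKM and 13.1 ± 2.15 for the liver type PFKL. HK1 and HK2, the hexokinases that trap glucose as glucose 6-phosphate, averaged 50.9 ± 3.03 and 26.5 ± 3.60 CPM per kb. SLC2A1 (GLUT1), the basal glucose transporter, averaged 35.7 ± 6.92 CPM per kb, while SLC2A3 (GLUT3), a high-affinity glucose transporter of neurons, averaged 0.304 ± 0.0849. GPI, which isomerises glucose 6-phosphate, averaged 40.3 ± 2.32 CPM per kb. PFKFB3, the kinase-dominant regulator that raises fructose 2,6-bisphosphate, averaged 37.7 ± 7.94 and its relative PFKFB4 2.44 ± 0.432 CPM per kb. The monocarboxylate transporters SLC16A3 (MCT4, a lactate exporter) and SLC16A1 (MCT1) averaged 38.5 ± 5.40 and 36.9 ± 1.41 CPM per kb. In OE libraries they averaged 42.2 ± 2.54 and 36.8 ± 1.42 CPM per kb, farther apart than the sum of their SDs. In EV libraries they averaged 34.8 ± 4.96 and 37.0 ± 1.55 CPM per kb, closer than that sum. LDHB, the lactate dehydrogenase subunit that favours lactate to pyruvate, averaged 16.0 ± 4.56 CPM per kb, far under LDHA. A protein-coding identifier overlaps LDHB on the same strand, as given below, so its level is uncertain.

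Of the oxygen-sensing and hypoxia genes, HIF1A, the oxygen-regulated subunit of HIF-1, averaged 53.5 ± 3.11 CPM per kb and EGLN1 (PHD2), its main prolyl hydroxylase, 18.3 ± 0.834. BNIP3, a mitophagy receptor, averaged 22.9 ± 2.03, NDRG1, a stress-responsive gene linked to metastasis suppression, 17.4 ± 2.28, P4HA1, a collagen prolyl hydroxylase subunit, 16.0 ± 3.44, CA12, a carbonic anhydrase of the cell surface, 13.4 ± 4.86, and VEGFA, the angiogenic growth factor, 12.2 ± 3.67 CPM per kb. BNIP3L, a relative of BNIP3, averaged 9.76 ± 1.47 CPM per kb. The lowest of these with counts in each library were KDM3A, a histone H3K9 demethylase (2.79 ± 0.360), ADM, which encodes the vasodilator adrenomedullin (2.75 ± 0.730), PDK1, the kinase that shuts pyruvate dehydrogenase (1.05 ± 0.247), and ANKRD37 (0.799 ± 0.267 CPM per kb). CA9, the carbonic anhydrase often used as a hypoxia marker, was near 0: 3 counts in all, in 2 OE libraries, and 0 counts in the other 8 libraries. Over the 10 libraries, 3 counts equal 0.166 to 0.190 CPM. That limit covers counting error only. CA9 entered no test.

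**Figure D1:**
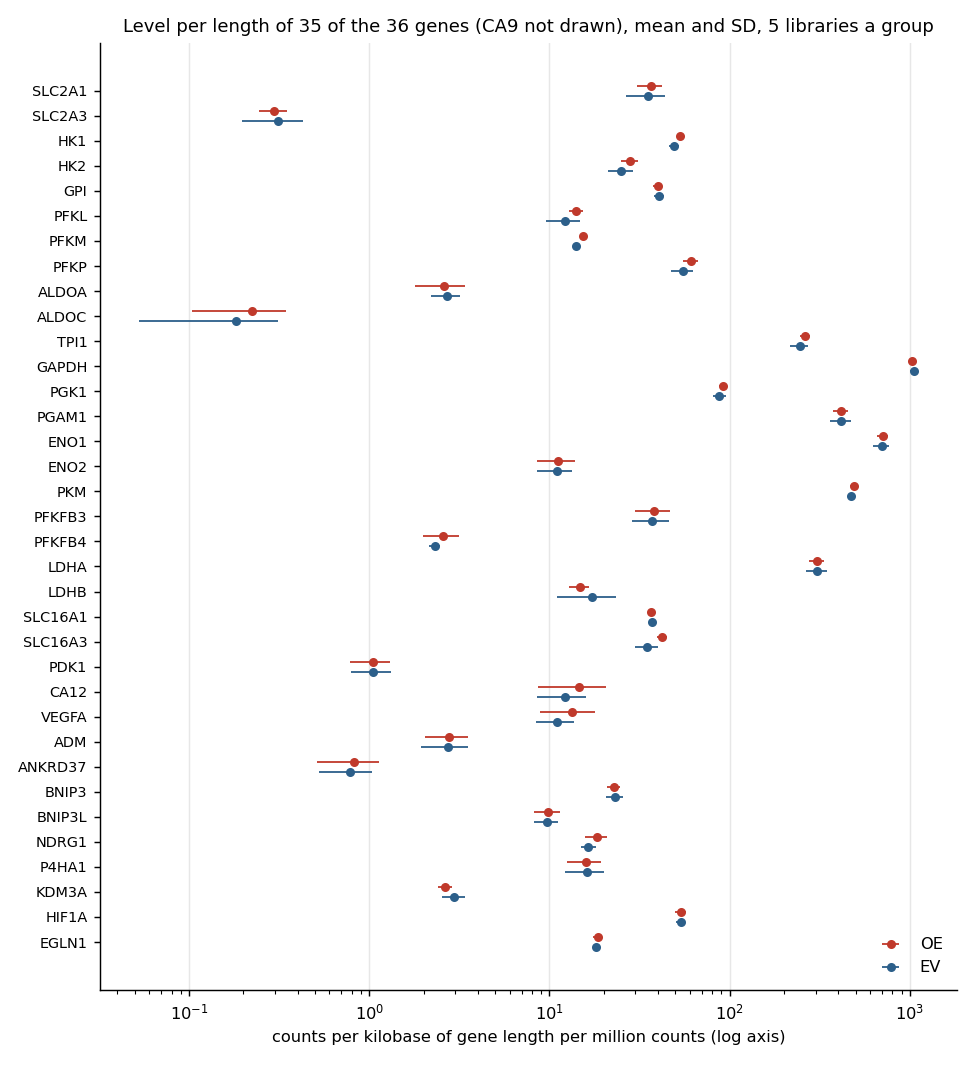
Level of each gene per length (CPM per kilobase, log axis) as mean and SD over 5 OE (red) and 5 EV (blue) libraries, in order of role; CA9 is not drawn because its EV level is 0. GAPDH at 1034 CPM per kb in OE and 1060 CPM per kb in EV stands at the top, and the pair of points lies close together for most genes.

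The levels of both aldolases listed here are uncertain. ALDOA, the main muscle-type aldolase, averaged 2.64 ± 0.627 CPM per kb and ALDOC, the brain type, 0.203 ± 0.120, which places them far below the enzymes on either side of them in the pathway. An overlapping protein-coding identifier (AC093512.2) covers 99.4% of the ALDOA span on the same strand, and another (AC005726.1) covers 100% of the ALDOC span. How reads over both were assigned was not tested. LDHB shares 22457 bases, 18.3% of its span, with the protein-coding AC010197.2 on the same strand. PGK1 likewise shares 63.9% of its span with ATP7A, and GPI 14.2% with AC092073.1. The assignment of reads over these was not tested either. Other members share part of their span with a gene on the opposite strand, such as SLC16A3 with CSNK1D over 67.5% of its span, PFKM with SENP1 over 2.84%, and ANKRD37 with UFSP2 over 23.6%. No label or file says whether the counting used strand, so reads of such pairs may be mixed or left uncounted.

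OE was compared with EV over both sets with the quasi-likelihood test of edgeR, with a term for the set, and p-values were adjusted by Benjamini-Hochberg over all 14217 genes tested. None of the 34 members tested passed an adjusted p of 0.05, where 0% of all genes did. At an unadjusted p under 0.05 there were 5 members, all higher in OE. Of all genes, 3.18% were higher with such a p and 5.71% had one in either direction. DESeq2 and limma-voom also called 0 members. The median log2 change of the 34 members was 0.04, with 21 above 0 and 13 below, against a median of -0.0028 over all genes, of which 49.2% were above 0. The members' changes lay between -0.23 (LDHB) and 0.29 (SLC16A3), with a median SE of 0.08. Without EV replicate 2, which was high in LDHB, LDHB was at 0.04 and the lowest value was -0.19 (KDM3A). The 5 members with an unadjusted p under 0.05 were SLC16A3, PFKP, NDRG1, VEGFA and PFKL. They export lactate, carry out the committed step of glycolysis (PFKP and PFKL) or belong to the hypoxia targets. When 1 library was left out, 1 to 6 members had such a p. Without OE replicate 1, OE replicate 3 or EV replicate 1 there was 1 member, without OE replicate 2, OE replicate 5 (1 of them KDM3A, lower) or EV replicate 4 there were 2, and without EV replicate 3 there were 3. SLC16A3 was among them each time. There were 6 without EV replicate 2, all higher (7.65% of all genes), with TPI1 and PFKM added and VEGFA no longer among them.

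SLC16A3 had 384, 352, 372, 377 and 415 CPM in OE replicates 1 to 5, against 299, 280.1, 266, 362 and 359 CPM in EV replicates 1 to 5. OE was above EV within each set with no overlap, by a log2 change of 0.29 (SE 0.07, adjusted p = 0.847). PFKP had 282, 259, 288, 311 and 333 CPM in OE replicates 1 to 5, against 250.4, 222, 252, 285 and 316 CPM in EV replicates 1 to 5. OE was above EV without overlap in the first set, the groups overlapped in the second, and the change was 0.16 (SE 0.07, adjusted p = 0.847). NDRG1 had 199, 194, 204, 149 and 154 CPM in OE replicates 1 to 5, against 170.5, 164, 180.0, 153 and 140.3 CPM in EV replicates 1 to 5. In the first set every OE library was above every EV library, in the second they overlapped, and the change was 0.15 (SE 0.06, adjusted p = 0.847). PFKL had a change of 0.22 (SE 0.10, adjusted p = 0.847) and VEGFA one of 0.24 (SE 0.11, adjusted p = 0.847). None of these 5 changes passed the adjusted threshold. In bulk libraries a change of the RNA per cell cannot be told apart from a change in the share of cells that make it.

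For the abundant enzymes the data set narrow limits. The 95% interval of the log2 change of OE over EV was -0.16 to 0.09 for GAPDH, -0.13 to 0.17 for ENO1, -0.15 to 0.14 for LDHA and -0.15 to 0.14 for PGAM1. For HIF1A the interval was -0.13 to 0.13 and for EGLN1 -0.09 to 0.18. A p that misses the threshold does not show that the groups were alike, and these intervals give the sizes of change that the data allow. Less abundant members were measured less closely: the interval was -0.60 to 0.76 for ANKRD37 and -0.68 to 0.53 for SLC2A3, which averaged 1.82 ± 0.320 CPM in OE and 1.92 ± 0.712 CPM in EV libraries (SD, n = 5 each).

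Levels of further members by role are given as mean CPM ± SD over 5 libraries a group. SLC2A1, the basal glucose transporter, averaged 172 ± 27.1 in OE and 165 ± 40.6 in EV libraries. HK1 averaged 333 ± 6.79 in OE and 308 ± 19.5 in EV libraries, and HK2 169 ± 18.3 in OE and 152 ± 23.5 in EV libraries. HK1 lay above EV in each OE library within each set, and SLC2A1 did so in the first set, while HK2 overlapped within each set. LDHA averaged 1893 ± 185 in OE and 1900.3 ± 259 in EV libraries. HIF1A averaged 275 ± 18.6 in OE and 275 ± 15.1 in EV libraries, EGLN1 135 ± 7.89 in OE and 131 ± 3.33 in EV libraries, and BNIP3 121 ± 9.44 in OE and 122 ± 13.1 in EV libraries.

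**Figure D2:**
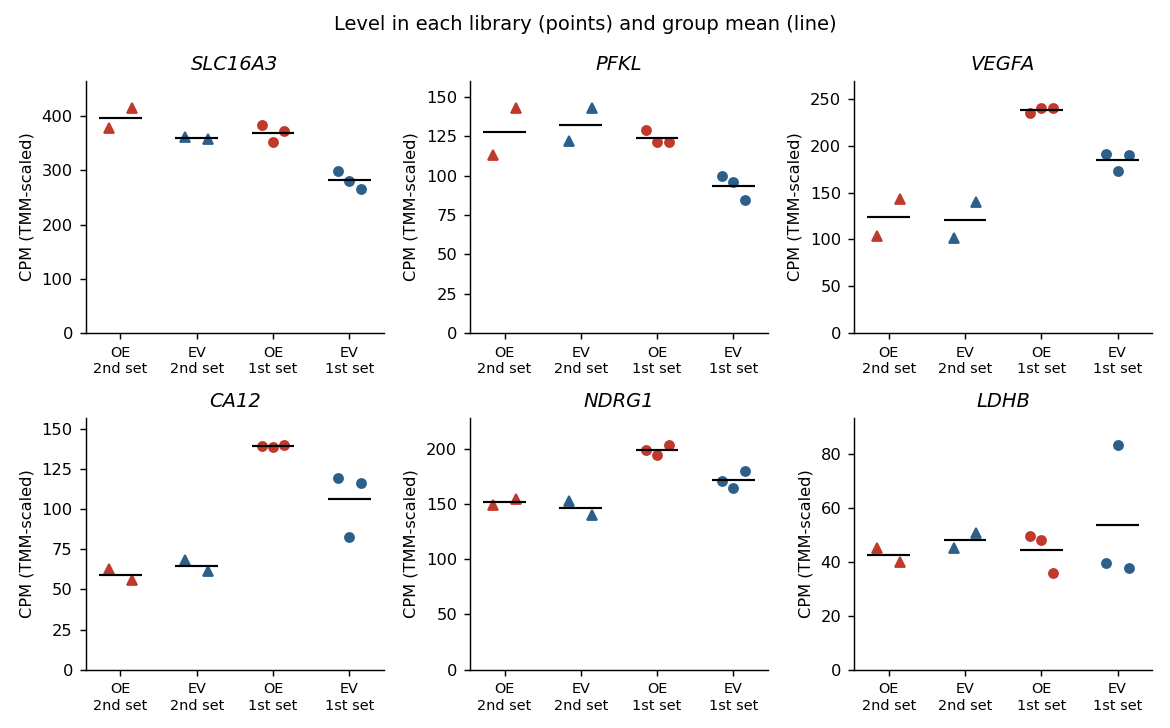
CPM of 6 members in each library, with OE in red and EV in blue, circles for the first set and triangles for the second, and a line at each group's mean within a set. The OE points of SLC16A3 lie above the EV points within each set, those of PFKL, VEGFA, CA12 and NDRG1 do so in the first set and overlap in the second, and LDHB shows 1 EV library at 83.5 CPM.

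Within the first set alone, where 3 OE and 3 EV libraries were compared, again none of the 35 tested members passed the adjusted threshold, where 0.0349% of all genes did. PFKL had 129, 121 and 121 CPM in OE replicates 1 to 3, against 99.8, 96.0 and 84.6 CPM in EV replicates 1 to 3. OE and EV libraries did not overlap, and the change was 0.40 (SE 0.09, adjusted p = 0.351). VEGFA had 236, 239.9 and 240.4 CPM in OE replicates 1 to 3, against 191, 173 and 191 CPM in EV replicates 1 to 3. Every OE library was above every EV library, with a change of 0.36 (SE 0.08, adjusted p = 0.351). CA12 had 139, 139 and 140.0 CPM in OE replicates 1 to 3, against 119, 82.7 and 116 CPM in EV replicates 1 to 3. Its change was 0.38 (SE 0.14, adjusted p = 0.495), and EV replicate 2 was the lowest of these 6 libraries. SLC16A3 had a log2 change of 0.38 (SE 0.09, adjusted p = 0.324) and NDRG1 one of 0.20 (SE 0.08, adjusted p = 0.541), and neither passed. In all, 5 members had an unadjusted p under 0.05, all higher in OE, against 4.37% of genes higher at that level. Without EV replicate 2 there were 10 higher (13.6% of all genes) and 1 lower (11.8% of all genes), and without OE replicate 1 there were 3. The first-set change of LDHB was -0.27 with EV replicate 2 and 0.20 without it. In 10 members each OE library was above each EV library, as in 9.15% of all genes. They were SLC2A1, HK1, PFKL, PFKM, PFKP, PKM, SLC16A3, CA12, VEGFA and NDRG1. In 0 members each OE library was below each EV library, as in 7.86% of all genes. Without EV replicate 2, TPI1, PGK1, PGAM1, ENO1, LDHA, PFKFB4 and BNIP3L also had each OE library above each EV library. The share of all genes without that library was not counted. DESeq2 on the same libraries called 3 members, namely SLC16A3, VEGFA and PFKL, at adjusted p of 0.0189, 0.0341 and 0.0456, where it called 0.53% of all genes. limma-voom called 0 members, where it called 0.0279% of all genes.

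Without EV replicate 2, the first set had 6 of 35 members past the threshold, where 10.7% of all genes passed. Of these, 5 were higher in OE (6.07% of all genes): PFKL (log2 0.42, adjusted p = 0.000795), SLC16A3 (log2 0.38, adjusted p = 0.000572), VEGFA (log2 0.32, adjusted p = 0.00189), TPI1 (log2 0.29, adjusted p = 0.00507) and CA12 (log2 0.24, adjusted p = 0.0196). KDM3A was lower (log2 -0.33, adjusted p = 0.0427; 4.62% of all genes), with 33.4, 32.8 and 36.8 CPM in OE replicates 1 to 3, against 36.3, 36.1 and 49.6 CPM in EV replicates 1 to 3, of which EV replicate 3 is the highest. With EV replicate 2 in, the adjusted p of these 6 lay between 0.324 and 0.729. Without it, 3 OE libraries stood against 2 EV libraries. Over both sets, 0 members passed without that library. Cell type markers were called in the same first-set comparison without EV replicate 2. Of 7 tested thyroid and epithelial markers, 3 were higher in OE, namely KRT8 (log2 0.34), PAX8 (0.23) and KRT18 (0.23), and of 2 tested fibroblast markers COL1A1 was (0.82, adjusted p = 0.0413). Their part in the members' values was not tested.

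Within the second set, 2 OE and 2 EV libraries were compared, 0 of 35 members passed the adjusted threshold, where 0% of all genes did, and 0 had an unadjusted p under 0.05, where 1.1% of all genes did. LDHB had 45.23 and 40.0 CPM in OE replicates 4 and 5, against 45.24 and 50.8 CPM in EV replicates 4 and 5. Both OE libraries were below both EV libraries, with a change of -0.17 (SE 0.12, adjusted p = 1). SLC16A3 had 377 and 415 CPM in OE replicates 4 and 5, against 362 and 359 CPM in EV replicates 4 and 5, with a change of 0.14 (SE 0.08, adjusted p = 1). CA12 had 62.5 and 55.7 CPM in OE replicates 4 and 5, against 68.3 and 61.3 CPM in EV replicates 4 and 5, with a change of -0.13 (SE 0.11, adjusted p = 1). HK1 and SLC16A3 had both OE libraries above both EV libraries, as in 12.3% of all genes, and LDHB had both below, as in 12.7%. With 2 libraries a group the intervals were wide, such as -0.72 to 0.70 for ENO2, the neuronal enolase. ENO2 had 28.4 and 48.3 CPM in OE replicates 4 and 5, against 29.4 and 48.2 CPM in EV replicates 4 and 5. Its interval therefore also holds a replicate difference seen in both groups, as this fit has no replicate term.

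The OE change was tested for a difference between the sets as an interaction (change in the second set minus change in the first). None of 34 members passed, where 0.00703% of all genes did. PFKL had a difference of -0.45 (SE 0.17, adjusted p = 1), from a change of -0.05 in the second set and 0.40 in the first. CA12 had one of -0.53 (SE 0.20, adjusted p = 1), from -0.13 in the second set and 0.38 in the first. VEGFA differed by -0.33 (SE 0.21, adjusted p = 1) and SLC16A3 by -0.25 (SE 0.13, adjusted p = 1). At an unadjusted p under 0.05, 2 members (PFKL and CA12) were lower in the second set than in the first in their OE change, where 1.52% of all genes were. Without EV replicate 2 there were 4, with TPI1 and SLC16A3 added (4.93% of all genes), and 0 passed the adjusted threshold (0.0484% of all genes). There were also 4 without OE replicate 5, namely PFKL, VEGFA, PFKFB4 and ALDOA, and 1 without OE replicate 1, OE replicate 4, EV replicate 3 or EV replicate 5. An OE change in one set and not in the other is therefore not shown to differ for any member by the adjusted test.

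**Figure D3:**
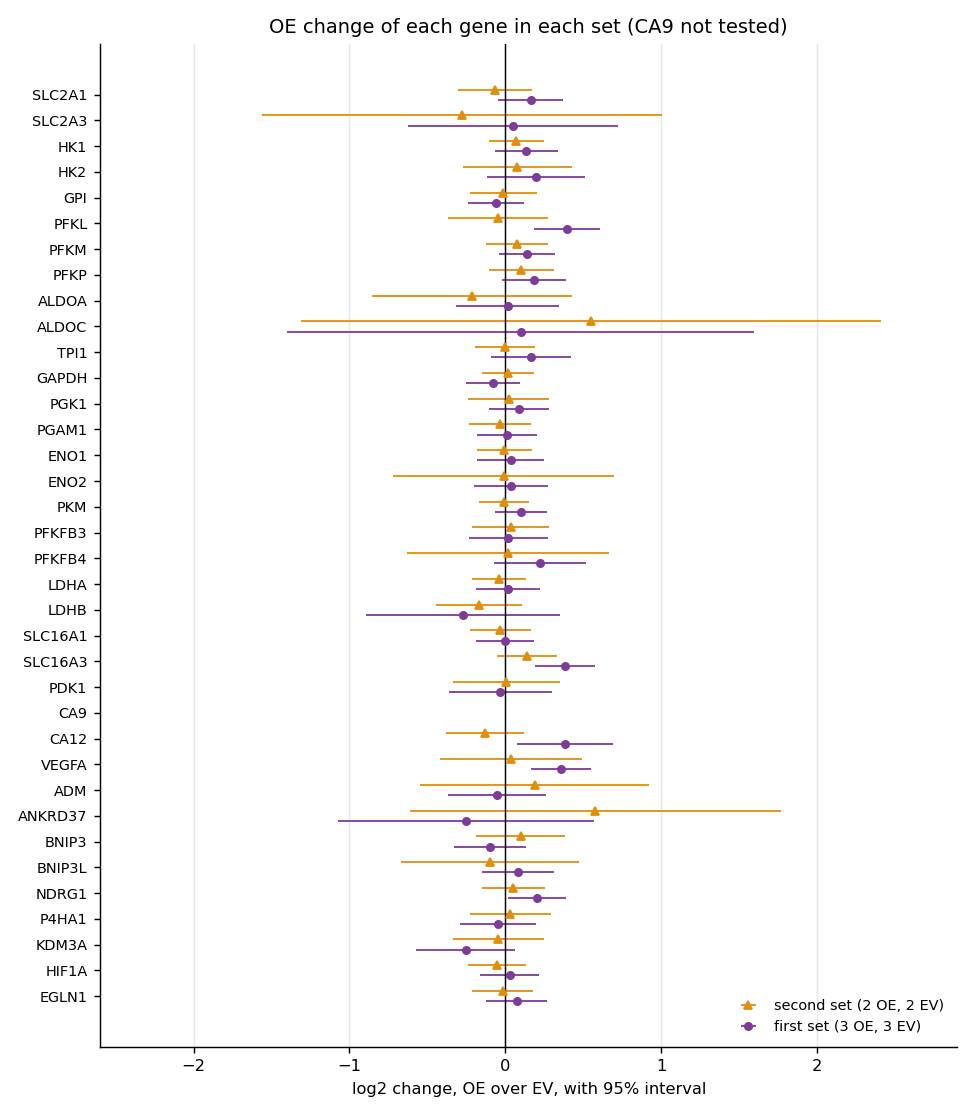
log2 OE over EV change of each tested member with its 95% interval in the second set (orange triangles, 2 OE and 2 EV libraries) and first set (purple circles, 3 OE and 3 EV libraries). The intervals of PFKL, SLC16A3, CA12, VEGFA and NDRG1 lie above 0 in the first set, and no interval excludes 0 in the second set.

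Between OE and EV 0 members passed over both sets, while 14 did between the sets. With the group as a term, 14 of 34 members differed between the second and first set at an adjusted p under 0.05, where 18.4% of all genes did, 7 of them higher and 7 lower in the second set. This compares deposited tables of libraries, and the sources used here do not name what separates them. The glycolysis, glucose and lactate genes had 7 higher and 2 lower of 23 tested, and the pH, hypoxia and HIF genes had 0 higher and 5 lower of 11. Over all genes, 9.27% were higher and 9.17% lower. This split follows the roles given above, and HIF-1 also raises many genes of glycolysis, so it does not part HIF-1 targets from other genes. The median log2 difference of the members was -0.0081, against -0.0012 over all genes. Of 6 tested thyroid and epithelial markers, 1 passed between the sets, where 18.4% of all genes did. It was the epithelial keratin KRT7, higher in the second set (log2 1.11, adjusted p = 0.0121). KRT7 averaged 5.24 ± 1.72 CPM in the second set, against 2.46 ± 0.815 CPM in the first set (SD, n = 4 and n = 6). Without EV replicate 4 it did not pass (adjusted p = 0.0658). Its part in these results was not tested.

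Among the genes of glycolysis, glucose and lactate, 7 were higher in the second set. PDK1 had 18.0 and 21.3 CPM in OE and 19.0 and 20.2 CPM in EV libraries of the second set, against 11.6 to 15.3 CPM (median 12.5) in the 6 first-set libraries (log2 0.60, SE 0.10, adjusted p = 0.00191). PFKFB3 had 307 and 264 CPM in OE and 296 and 263 CPM in EV libraries of the second set, against 164 to 217 CPM (median 199) in the 6 first-set libraries (log2 0.53, SE 0.08, adjusted p = 0.000753). SLC2A1 had 184 and 214 CPM in OE and 201 and 216 CPM in EV libraries of the second set, against 126 to 160.4 CPM (median 146) in the 6 first-set libraries (log2 0.49, SE 0.08, adjusted p = 0.000844). In all 3 each second-set library lay above each first-set library. LDHA had 2164 and 2000.2 CPM in OE and 2167 and 2125 CPM in EV libraries of the second set, against 1598 to 1944 CPM (median 1750.0) in the 6 first-set libraries (log2 0.27, SE 0.07, adjusted p = 0.015), also without overlap. PGAM1 had 1195 and 1142 CPM in OE and 1272 and 1125 CPM in EV libraries of the second set, against 908 to 1071 CPM (median 985) in the 6 first-set libraries (log2 0.26, SE 0.07, adjusted p = 0.0154) and did not overlap either. PFKP (log2 0.27, SE 0.07, adjusted p = 0.0156) and SLC16A3 (log2 0.23, SE 0.07, adjusted p = 0.0384) were higher with overlap between the sets. The 5 members without overlap compare with 8.68% of all genes.

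Another 7 members were lower in the second set, among them secreted and intracellular hypoxia targets. CA12 had 62.5 and 55.7 CPM in OE and 68.3 and 61.3 CPM in EV libraries of the second set, against 82.7 to 140.0 CPM (median 129) in the 6 first-set libraries (log2 -0.97, SE 0.12, adjusted p = 0.000232). VEGFA had 104 and 143 CPM in OE and 102 and 139.8 CPM in EV libraries of the second set, against 173 to 240.4 CPM (median 213) in the 6 first-set libraries (log2 -0.78, SE 0.11, adjusted p = 0.000451). ADM had 4.21 and 7.27 CPM in OE and 4.75 and 5.36 CPM in EV libraries of the second set, against 8.03 to 9.44 CPM (median 8.87) in the 6 first-set libraries (log2 -0.72, SE 0.15, adjusted p = 0.00643). ALDOA, with the uncertain counts described above, had 5.46 and 9.19 CPM in OE and 8.36 and 8.68 CPM in EV libraries of the second set, against 10.3 to 13.6 CPM (median 11.9) in the 6 first-set libraries (log2 -0.60, SE 0.15, adjusted p = 0.0141). P4HA1 had 40.2 and 36.6 CPM in OE and 36.7 and 38.5 CPM in EV libraries of the second set, against 53.3 to 65.8 CPM (median 54.7) in the 6 first-set libraries (log2 -0.59, SE 0.08, adjusted p = 0.00043). In these 5 and in NDRG1 (log2 -0.31, SE 0.07, adjusted p = 0.00579) every second-set library lay below every first-set one. These 6 members compare with 7.88% of all genes. ENO2 (log2 -0.46, SE 0.15, adjusted p = 0.0427) was lower with overlap between the sets. Of the other hypoxia targets, BNIP3 (log2 -0.04), BNIP3L (-0.18), KDM3A (0.0071) and ANKRD37 (-0.0090) did not pass. Neither did HIF1A (log2 -0.13, SE 0.06, adjusted p = 0.166) or EGLN1 (log2 -0.01, SE 0.06, adjusted p = 0.956).

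The deviation of each library is given next for the hypoxia genes and for the glycolysis genes, and the difference between these lists was not tested. Over the 11 tested pH, hypoxia and HIF genes the median deviation from the mean over the 10 libraries was -0.19 and 0.01 in OE replicates 4 and 5 and -0.34 and -0.09 in EV replicates 4 and 5. In the first set it was 0.17, 0.09 and 0.16 in OE replicates 1 to 3 and 0.06, 0.04 and 0.10 in EV replicates 1 to 3. Replicate 4 was lowest in each group. Over the 23 tested genes of glycolysis, glucose and lactate the medians lay between -0.14 and 0.10, and over all 14217 genes between 0.0031 and 0.013.

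Some of these calls did not hold when 1 library was left out. SLC16A3 lost its call without OE replicate 2, OE replicate 3, OE replicate 5, EV replicate 1, EV replicate 3, EV replicate 4 or EV replicate 5, with adjusted p between 0.0585 and 0.134. ENO2 lost it without OE replicate 1, OE replicate 2, OE replicate 3, OE replicate 4, EV replicate 1, EV replicate 3 or EV replicate 4, with adjusted p between 0.0674 and 0.157. For PFKP this happened when OE replicate 5 was left out (adjusted p = 0.0524) and when EV replicate 5 was (adjusted p = 0.0678), and for PGAM1 and LDHA when EV replicate 4 was (adjusted p = 0.0709 and 0.0538). The other 9 calls held in each leave-out. Without EV replicate 2, ENO1 (log2 0.20, adjusted p = 0.00896) and HIF1A (log2 -0.15, adjusted p = 0.0286) were called too, and so was PFKL without OE replicate 4 (log2 0.38, adjusted p = 0.0164). Within the OE libraries alone, 11 of 35 members were called, where 12.7% of all genes were, and within the EV libraries alone 0 were, where 0.414% of all genes were. The log2 differences of the 14 within EV libraries had the same sign as those over both groups, such as -1.24 in OE libraries and -0.71 in EV libraries for CA12, and -0.95 in OE libraries and -0.61 in EV libraries for VEGFA.

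**Figure D4:**
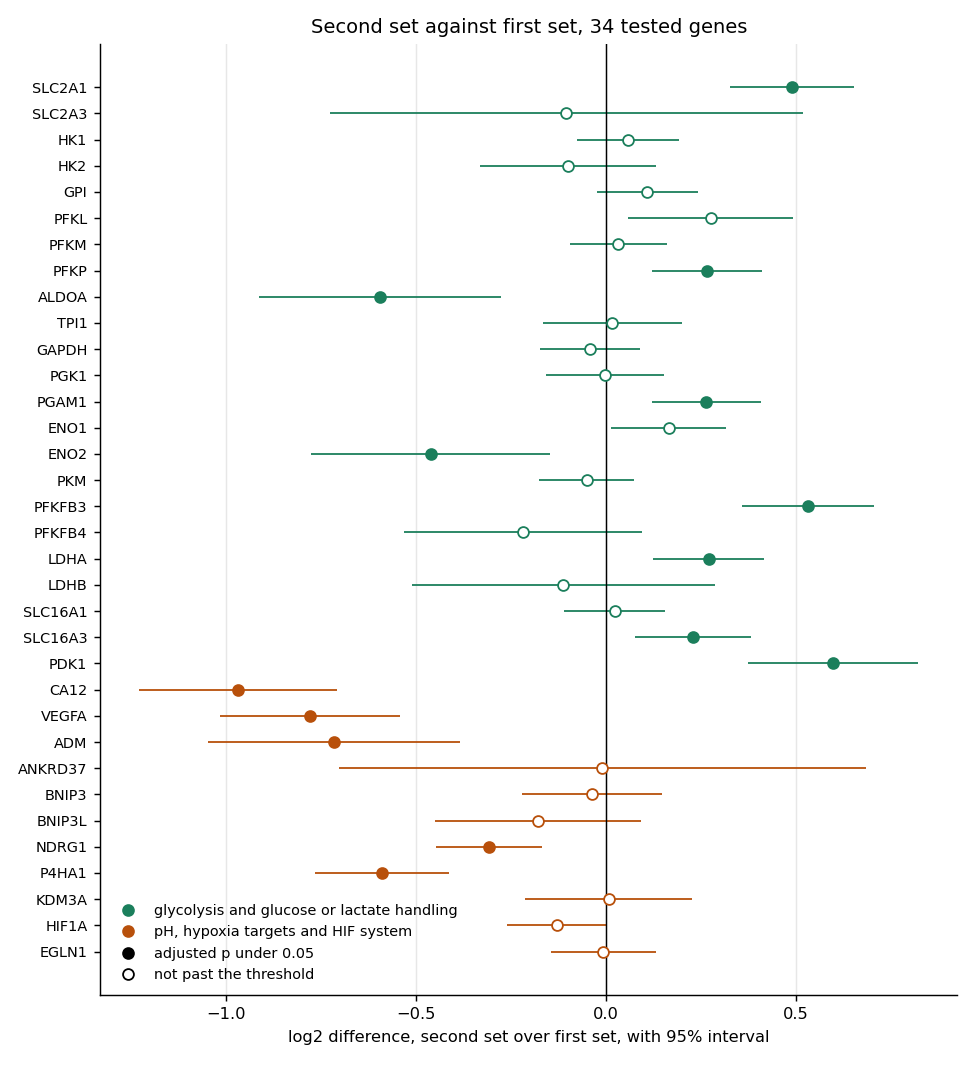
log2 difference of each of 34 tested members between the second and the first set, with 95% interval; filled points passed an adjusted p of 0.05. CA12 at -0.97, VEGFA at -0.78 and ADM at -0.72 are the lowest and PDK1 at 0.60 the highest.

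**Figure D5:**
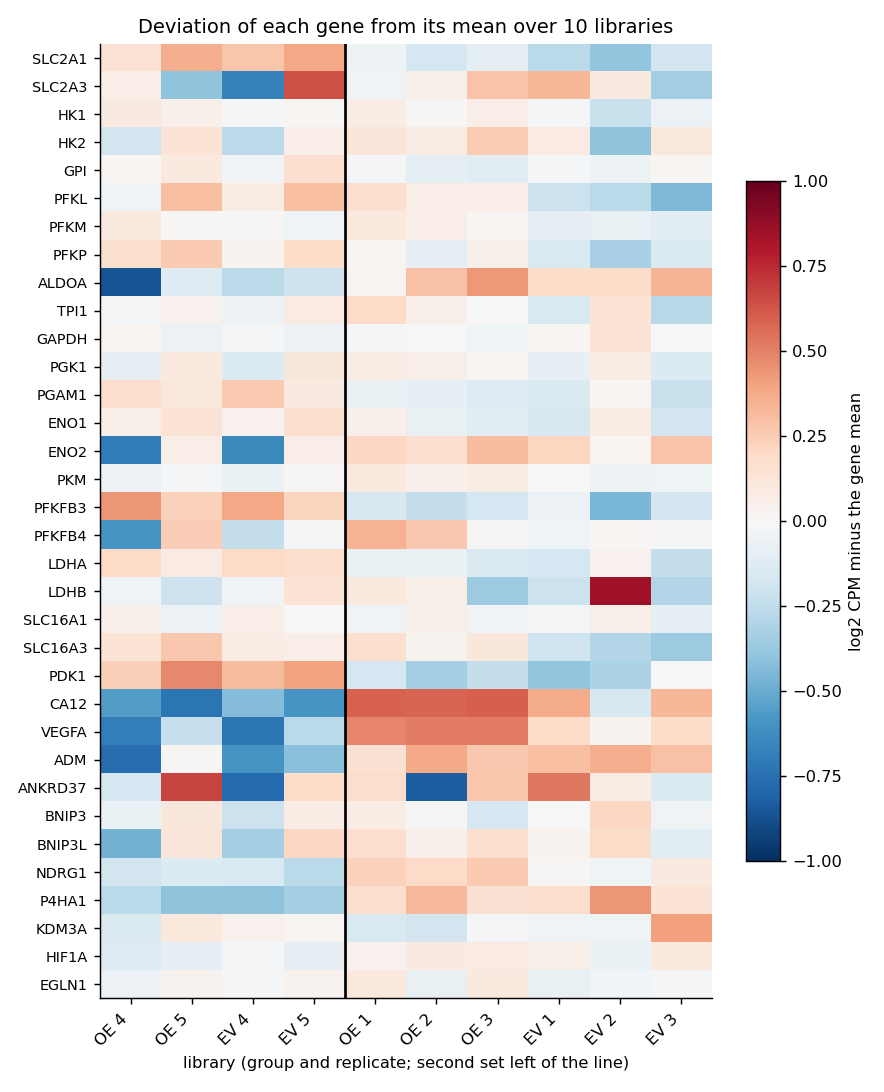
Deviation of log2 CPM from each gene's mean over the 10 libraries, with OE left of EV and the second set left of the line. CA12, VEGFA, ADM and P4HA1 lie below their means in the second set, apart from ADM in OE replicate 5, and above them in the first, apart from CA12 in EV replicate 2, and LDHB in EV replicate 2 is the darkest red cell.

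Promoter sequences are shown for 5 of the members that differed between the sets, 3 lower and 2 higher in the second set, because HIF-1 binds hypoxia targets through the motif core named above. The RefSeq window for GRCh38.p14 covers 250 bases before and 50 after a gene's start and was available for 31 of the 36 members. BNIP3L, SLC16A1, VEGFA, NDRG1 and SLC2A3 had none. Motifs searched were ACGTG and GCGTG on both strands, where a CACGTG counts once on each strand. ACGTG was found in 41.9% of the 31 members and 21.6% of all 27305 promoters, GCGTG in 51.6% and 36.3%, and either one in 77.4% and 48.4%. Of the 7 members higher in the second set, 3 held either motif, of the 5 lower ones with a window all 5 did, and of the 17 uncalled ones 14 did. A match in these letters is a description, and says nothing on binding.

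The 250 bases before the start follow, 5′ to 3′ on the gene's strand, in lower case with motif matches in capitals. P4HA1 (chr10:73096867-73097116, minus strand), CA12 (chr15:63381847-63382096, minus strand) and ENO2 (chr12:6914330-6914579, plus strand) were lower in the second set, and LDHA (chr11:18394313-18394562, plus strand) and PFKFB3 (chr10:6144671-6144920, plus strand) were higher. For a gene with several windows in RefSeq, such as LDHA, the first listed was used, here and in the shares above.
P4HA1: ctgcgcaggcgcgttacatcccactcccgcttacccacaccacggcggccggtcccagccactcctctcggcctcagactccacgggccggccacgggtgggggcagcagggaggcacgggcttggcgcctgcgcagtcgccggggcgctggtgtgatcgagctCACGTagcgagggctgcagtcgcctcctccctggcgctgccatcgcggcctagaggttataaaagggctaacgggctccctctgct
CA12: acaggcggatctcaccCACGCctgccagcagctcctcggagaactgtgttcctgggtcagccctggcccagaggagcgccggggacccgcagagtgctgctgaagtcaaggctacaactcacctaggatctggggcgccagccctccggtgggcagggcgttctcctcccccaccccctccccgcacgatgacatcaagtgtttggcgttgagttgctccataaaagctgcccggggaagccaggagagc
ENO2: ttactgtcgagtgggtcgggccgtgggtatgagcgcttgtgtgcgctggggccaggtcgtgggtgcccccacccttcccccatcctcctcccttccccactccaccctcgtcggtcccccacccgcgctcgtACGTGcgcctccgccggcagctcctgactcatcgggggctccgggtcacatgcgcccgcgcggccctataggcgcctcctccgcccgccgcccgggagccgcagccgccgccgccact
LDHA: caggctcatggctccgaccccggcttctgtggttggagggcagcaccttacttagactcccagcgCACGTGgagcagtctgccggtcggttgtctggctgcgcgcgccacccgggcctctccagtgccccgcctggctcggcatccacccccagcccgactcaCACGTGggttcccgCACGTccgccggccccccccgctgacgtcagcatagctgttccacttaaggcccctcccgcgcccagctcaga
PFKFB3: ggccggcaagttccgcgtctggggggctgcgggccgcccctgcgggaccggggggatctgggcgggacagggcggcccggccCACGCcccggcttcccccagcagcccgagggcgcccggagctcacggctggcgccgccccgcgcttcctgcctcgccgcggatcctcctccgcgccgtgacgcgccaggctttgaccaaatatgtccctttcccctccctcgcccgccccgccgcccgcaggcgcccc
In these 250 bases LDHA holds 5 ACGTG matches, P4HA1 and ENO2 hold 1 each, and CA12 and PFKFB3 hold 1 GCGTG match each. The genes shown do not stand for all members of their direction. Among those higher in the second set, PGAM1, PDK1, PFKP, SLC16A3 and SLC2A1 hold no match in these 250 bases. ADM and ALDOA, which were lower and are not shown, hold 1 match each.

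Further lists put the members beside the rest of their pathways. Of 46 other glycolysis genes, 31 were tested over both sets, and in OE against EV 0 passed (0% of all genes). An unadjusted p under 0.05 was found for 5 of the 31, with 4 higher and 1 lower, where 5.71% of all genes had one. Those with the lowest p were TXNIP, which restrains glucose uptake (log2 -0.45, adjusted p = 0.847), PGM1, a phosphoglucomutase (0.23, adjusted p = 0.847), and SLC2A10, a glucose transporter (0.39, adjusted p = 0.847). In the first set TXNIP passed, and it was the 1 gene of the list that did, with 72.8, 73.8 and 69.6 CPM in OE replicates 1 to 3, against 126, 115 and 122 CPM in EV replicates 1 to 3 (log2 -0.76, SE 0.09, adjusted p = 0.0332). Its call did not hold without OE replicate 1, OE replicate 2, OE replicate 3, EV replicate 1 or EV replicate 3, with adjusted p up to 0.515, and held without EV replicate 2 (adjusted p = 2.22e-08). In the second set it had 72.9 and 82.7 CPM in OE replicates 4 and 5, against 77.9 and 76.6 CPM in EV replicates 4 and 5, a change of 0.01, and the interaction did not pass (log2 0.76, adjusted p = 0.235), but did without EV replicate 2 (log2 0.79, adjusted p = 0.0128). Without that library, 5 of 32 genes of the list passed in the first set (10.7% of all genes): PGM1 (0.43), SLC2A6 (0.31), PGAM5 (0.26) and BSG (0.20) were higher, and TXNIP lower. Of 55 other hypoxia genes, 49 were tested over both sets and 0 passed, with PLOD1 (0.18), RIOK3 (-0.25) and DDIT4 (0.24) at the lowest p, each with adjusted p = 0.847. In the first set 0 of these hypoxia genes passed (0.0349% of all genes). There 7 of 49 had an unadjusted p under 0.05, with 3 higher and 4 lower, where 8.84% of all genes had one. Without EV replicate 2, 6 of 49 passed the adjusted threshold (10.7% of all genes). DDIT4 (0.43) and ELOB (0.29) were higher, and BHLHE41 (-0.54), HMOX1 (-0.41), EP300 (-0.35) and CREBBP (-0.31) lower.

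Between the sets, 18 of the 49 other hypoxia genes passed (18.4% of all genes), 7 higher and 11 lower in the second set, and their median difference was -0.12. HMOX1, heme oxygenase 1, was lower (log2 -1.42, adjusted p = 6.96e-05), and so was BHLHE41, a clock and hypoxia repressor (log2 -1.31, adjusted p = 0.000887). MXI1, a MYC antagonist (-0.55), BHLHE40, a relative of BHLHE41 (-0.50), EPAS1, which encodes HIF-2 alpha (-0.46), and FUT11, a fucosyltransferase (-0.43), were lower as well. So were the lysyl hydroxylases of collagen PLOD1 (-0.30) and PLOD2 (-0.27), the collagen prolyl hydroxylase subunit P4HA2 (-0.29), JMJD6 (-0.26) and 1 more gene. ARNT2, a partner of HIF alpha subunits (0.74), EGLN2, a HIF prolyl hydroxylase (0.66), IGFBP3, which binds insulin-like growth factors (0.60), and GYS1, a glycogen synthase (0.59), were higher. AK4, a mitochondrial adenylate kinase (0.55), LOXL2, which crosslinks collagen (0.43), and CITED2, which competes with HIF for a coactivator (0.31), were higher too. When 1 library was left out, 12 of the 18 held each time, and EGLN2, CITED2, P4HA2, JMJD6, IGFBP3 and the gene not named lost their call in some leave-outs. Within OE libraries alone 16 were called (12.7% of all genes) and within EV libraries alone 2 (0.414% of all genes). Of the other glycolysis genes 6 of 31 passed (18.4% of all genes). SLC2A8, a glucose transporter (0.37), and PGAM5, a mitochondrial phosphatase despite its name (0.29), were higher. PGAM4 (-1.202), the mitochondrial pyruvate carrier subunit MPC1 (-0.44), GPD1L (-0.41) and the pyruvate carboxylase PC (-0.30) were lower. The call of SLC2A8 held in each leave-out, and the other 5 lost theirs in some. PGAM4 lies within the PGK1 span on the opposite strand and had 293 counts over the 10 libraries, so its value is uncertain.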

How the data were processed

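RNA of TPC-1 cells with the PTCSC3-AS1 vector or the empty vector was sequenced in 10 libraries, 5 per group. Per the labels' protocols, TRIzol RNA was DNase-treated, and libraries came from a NEBNext Ultra kit. The submitters' processing notes name hg38, HISAT2 2.0.5 and featureCounts 1.5.0-p3, and also fastp, CASAVA 1.8 and DESeq2 1.20.0. No label or header gives their order, the annotation release or the strand setting. The deposited tables hold, per the file headers, raw counts per gene and library and a gene length in bases. The second deposited table also holds the authors' log2 fold change and p-value for replicate 4 and for replicate 5. The 14 per-library columns of normalized values were not used.

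Counts were joined by gene identifier. They were tested with the quasi-likelihood test of edgeR 4.0.16 (R 4.3.3) with TMM scaling, the default filterByExpr filter and Benjamini-Hochberg adjustment over all genes tested, at a threshold of 0.05. The fits covered both sets (set as a term), each set alone, their interaction, and the second set against the first (group as a term). The code was tested on simulated data. CPM are TMM-scaled; deviations use log2 CPM with a prior count of 2. Intervals are at 95%. With 15761474 to 18066559 counts per library, 3 counts equal 0.166 to 0.190 CPM, a floor for counting error only. Alternatives were DESeq2 1.42.0 and its size factors, limma-voom (limma 3.58.1), no filter, a replicate block, and leaving out each library.

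The members and the further lists were chosen with earlier results of these data known, so no set test was made and a list is described by counts and medians. Members are named by role. Values of each library are given for the 3 members with the lowest p in each OE comparison. They are also given for GAPDH, ENO1 and PKM among the 5 highest levels per length. Between the sets, second-set values and a first-set range are given for the 5 largest falls and for PDK1, PFKFB3, SLC2A1, LDHA and PGAM1. The rise of PFKP (log2 0.267) was slightly larger than that of PGAM1 (log2 0.264). Of other lists, genes past the threshold (at most 10 per direction) and the 3 lowest p are named.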

Additional observations from a re-analysis of the deposited data

Results flagged for a closer look

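In 4 of the 70 groups of 5 values examined, 1 library lay far from the other 4 by Dixon's test at the 95% level, which chance alone does in about 1 group in 20. LDHB, the lactate dehydrogenase subunit that favours lactate to pyruvate, was high in EV replicate 2 at 83.5 CPM, against 37.7 to 50.8 CPM in the other EV libraries. KDM3A, the histone demethylase, was high in EV replicate 3 at 49.6 CPM, against 36.1 to 38.3 CPM. PFKFB4, a regulator of fructose 2,6-bisphosphate, was low in EV replicate 4 at 12.4 CPM, against 14.2 to 14.8 CPM. BNIP3L, the mitophagy receptor, was low in OE replicate 4 at 29.9 CPM, against 43.0 to 46.8 CPM in the other OE libraries.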

How the results depend on the processing

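Members called in OE against EV stayed at 0 over both sets, in the second set and in the interaction under each alternative. In the first set they numbered 3 with DESeq2 and 0 to 6 when 1 library was left out. Between the sets, 14 members were called, 10 to 16 when 1 library was left out, 11 in OE libraries alone and 0 in EV libraries alone.

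Counts over all genes moved more. Over both sets 0 genes were called, 6 with DESeq2 and 23 without the filter. In the first set 5 were called, 76 with DESeq2, 90 without the filter and 0 to 1578 when 1 library was left out. In the second set 0 were called, 1 with DESeq2, 12 without the filter and 0 to 1 when 1 library was left out. For the interaction 1 gene was called, 9 with DESeq2, 28 without the filter and 0 to 7 when 1 library was left out. Between the sets 2621 were called, 61 in EV libraries alone and 1312 to 3850 when 1 library was left out (1719 without OE replicate 4 and 1312 without EV replicate 4). The cause was not tested.

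With the replicate number as a block, 0 genes were called over both sets, 1 in the first set, 71 in the second and 3 for the interaction, with 0 members in each. Same-numbered libraries deviated together at r = -0.11, 0.0035 and 0.16 in the first set and 0.31 in the second. In the first set the numbers did not pair the libraries throughout, so the main fits have no replicate term. For the second set alone pairing was not settled, and its main fit and the interaction ignore any such pairing.

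Signs of small changes were not stable: 16 of 34 members turned sign under some alternative over both sets, 15 of 35 in the first set, 27 of 35 in the second, 16 of 34 in the interaction and 11 of 34 between the sets, where 0 of the 14 called ones did. No called value was reversed. Depth limits CA9, ALDOC, SLC2A3 and ANKRD37, which have few counts.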

Other observations

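Replicates 4 and 5 lay apart in some members, which were picked after their values were seen. VEGFA had 104 and 143 CPM in OE replicates 4 and 5 and 102 and 139.8 CPM in EV replicates 4 and 5. ENO2 had 28.4 and 48.3 CPM in those OE libraries and 29.4 and 48.2 CPM in those EV libraries. For BNIP3L the values were 29.9 and 45.3 CPM in OE and 32.8 and 47.9 CPM in EV libraries. The log2 difference of replicate 5 over replicate 4 was 0.46 in OE and 0.46 in EV for VEGFA, 0.77 and 0.71 for ENO2, 0.60 and 0.55 for BNIP3L and 0.89 and 1.04 for ANKRD37. Other members differed in this value between the groups, such as ADM with 0.79 in OE and 0.17 in EV, P4HA1 with -0.13 in OE and 0.07 in EV and NDRG1 with 0.05 in OE and -0.12 in EV. Each rests on 1 library against 1 library and was not tested.

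In the authors' deposited table, which compares OE with EV for replicate 4 and for replicate 5 one library at a time, 35 members have a value and 0 have an adjusted p under 0.05. Their log2 fold changes in the authors' deposited table run from -0.61 to 0.81 for replicate 4 and from -1.09 to 0.61 for replicate 5.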
